A study of Mus musculus with 2 samples.

Results

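The 38 genes described here encode the machinery that brings new proteins into the endoplasmic reticulum (ER), cleaves, glycosylates and folds them there, and answers when folding falls behind. They were taken by gene symbol from the deposited gene lists of a single-cell study of mouse hepatocytes, and all 38 were found among 28692 listed genes. The study made 2 libraries, both of C57BL/6 liver hepatocytes grown in 3 dimensions in growth-factor-reduced matrigel, a gel of basement membrane proteins. Both media were William E medium with Glutamax, non-essential amino acids, penicillin and streptomycin, normocin, B27, N2, nicotinamide (100 mM) and N-acetylcysteine (1.25 mM). They also shared Y27632 (10 uM, a ROCK inhibitor), A83-01 (1 uM, a TGF-beta receptor inhibitor), EGF (25 ng/mL) and HGF (50 ng/mL). The expansion medium added CHIR99021 (3 uM, a GSK3 inhibitor) and TNFa (100 ng/mL, an inflammatory cytokine). The induction medium added dexamethasone (3 uM, a glucocorticoid) in their place. The age and sex of the animals, their number and the days in each medium were not given in the sources used here.

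Secreted and membrane proteins are recognised by the signal recognition particle, threaded through the Sec61 channel, trimmed by signal peptidase and given N-glycans by oligosaccharyltransferase while they are still being made. Inside the ER the Hsp70 chaperone BiP, the Hsp90 chaperone GRP94, the lectin chaperones and the disulfide isomerases fold them. When unfolded protein builds up, the sensors IRE1, PERK and ATF6 raise the transcription of these genes, IRE1 by splicing the Xbp1 mRNA. Hepatocytes make most plasma proteins and so depend on this machinery.

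The libraries differed in depth and in their mix of cells. After a filter on cells, 1191 expansion cells held a median of 23184 UMIs (unique molecular identifiers, 1 per captured transcript) and 1245 induction cells a median of 6765, a 3.43-fold gap. All 10 hepatocyte markers listed were detected in both libraries. Of other cell types, the defining markers Ighm and Tnfrsf17 of plasma cells, Ptprc, Cd3e, Cd3d, Cd79b and Ms4a1 of B and T cells, Adgre1, Clec4f, Cd5l, Marco and C1qa of Kupffer cells, Kdr, Lyve1, Cdh5 and Clec4g of endothelial cells, and Col1a1, Col1a2 and Col3a1 of stellate cells were at 0 in both. Other markers on these lists were detected, among them Sdc1 (89.3 CPM in expansion and 113 CPM in induction), Stab1 (24.9 and 31.5 CPM), Reln (29.4 and 13.1 CPM) and Cd68 (1.36 and 0.652 CPM). Of 6 cholangiocyte markers Krt7 was at 0 in both, and the list summed to 1426 and 746 CPM, mostly from Spp1 (1307 and 661 CPM) and Sox9 (103 and 74.8 CPM). The part of these transcripts in the results was not tested. Cells with Xist and no Y-linked UMI numbered 325 in expansion and 412 in induction, and cells with a Y-linked UMI and no Xist numbered 505 and 503. A further 275 expansion cells (23.1%) and 22 induction cells (1.77%) held both kinds of transcript, while Scrublet marked 4 and 2 cells as doublets. Of the barcodes, 4 occurred in both libraries. With 1 library per medium no difference could be tested or checked against a replicate, and medium, library, depth and animal cannot be told apart. Levels are given in CPM (UMIs of a gene scaled to a library total of 1000000 UMIs), with exact 95% Poisson intervals, and ratios as log2 of induction over expansion, with exact 95% binomial intervals. These intervals cover counting error only. Levels of different genes were not compared.

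The promoters of 9 members hold a sequence through which the unfolded protein response is known to act, so these are shown before the values. The letters of 3 motifs were searched on both strands in the RefSeq promoters of the mouse genome (build GRCm38.p6, 250 bases before to 50 after each gene's start): ERSE (CCAAT and CCACG with any 9 bases between), ERSE-II (ATTGG and CCACG with any 1 base between) and UPRE (TGACGTGG). Promoters were found for 29 of the 38 members. ERSE was present in 7 of these 29, against 37 of 27025 genes in all (0.137%), and ERSE-II in 2 of 29 (Herpud1 and, just inside its transcript, Dnajb11), against 12 genes in all (0.0444%). UPRE was present in 0 of 29, against 193 genes in all (0.714%). Xbp1, Sdf2l1, Dnajb9 and Pdia4 were among the 20 members whose promoter held none of the 3. Matches did not overlap each other in these promoters. The members were listed as genes of the ER and of the unfolded protein response, and the motifs are known from that response. The shares are thus a description, and their gap to all genes is no finding. A match is a run of letters, not a measured binding site, and these data hold no measurement of binding.
The promoter of Herpud1, the member whose level differed most between the media, is shown over the 150 bases before the RefSeq start (chr8:94386279-94386428, plus strand), with the ERSE-II in capitals, its first base 52 bases before the start.
Herpud1: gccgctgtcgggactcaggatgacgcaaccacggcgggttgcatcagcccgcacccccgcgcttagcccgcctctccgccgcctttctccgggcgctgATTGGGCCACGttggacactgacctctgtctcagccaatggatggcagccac
The ERSE matches of the 7 other promoters follow, each with 5 bases on either side and the match in capitals, to let their variable middle be compared. The Hspa5 match (chr2:34772020-34772048, plus strand) begins 65 bases before the RefSeq start and lies within the span that GENCODE M21 gives for this gene. The others are at chr10:86705633-86705661 and chr10:86705528-86705556 (Hsp90b1, minus strand), chr8:84847070-84847098 (Calr, minus), chr11:50325795-50325823 (Canx, minus), chr12:17266486-17266514 (Pdia6, plus), chr14:118937822-118937850 (Dnajc3, plus) and chr15:88819515-88819543 (Creld2, plus).
Hspa5: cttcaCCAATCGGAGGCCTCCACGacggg
Hsp90b1, farther from the start: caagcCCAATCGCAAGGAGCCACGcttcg
Hsp90b1, nearer to the start: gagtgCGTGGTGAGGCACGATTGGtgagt
Calr: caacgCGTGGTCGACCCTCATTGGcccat
Canx: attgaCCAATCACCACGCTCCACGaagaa
Pdia6: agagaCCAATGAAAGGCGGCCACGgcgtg
Dnajc3: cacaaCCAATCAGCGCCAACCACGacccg
Creld2: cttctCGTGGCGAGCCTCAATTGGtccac
The second Hsp90b1 match and those of Calr and Creld2 read in the opposite direction, so they begin with CGTGG.

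As a whole, the machinery took about the same share of transcripts in both media. The 38 members summed to 9872 CPM in expansion and 9340.4 CPM in induction, which is 0.987% and 0.934% of all UMIs (log2 ratio -0.08, interval -0.09 to -0.07). Over the same cells, 30 secreted hepatocyte proteins, part of the cargo of the ER, summed to 10.0% of UMIs in expansion and 12.8% in induction (log2 ratio 0.35). Much of this gap was Alb, at 1737 and 19450 CPM. Of the 30, 23 had intervals above a ratio of 1 and 7 below (50.8% and 18.6% of all genes). All 38 members reached 10 CPM. By the rule of at least 2-fold with an interval excluding 1, a single member, Herpud1, stood higher in induction, where 9.17% of all 7220 genes at 10 CPM or more did. No member stood 2-fold lower, where 3.17% of all genes did. At 1.5-fold, 2 members stood higher (Herpud1 and Atf6; 21.1% of all genes) and 4 lower (Xbp1, Sdf2l1, Hyou1 and Sec61g; 7.17% of all genes).

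The median log2 ratio of the members was -0.10, against 0.21 for all genes tested, because most genes stood slightly higher in induction. Over the 8480 genes that reached 50 UMIs in each library the median was 0.22, and a value relative to this median gene is the ratio minus 0.22. On that scale the members' sum was at -0.30. Herpud1 alone stood 2-fold higher (6.65% of all genes) and 0 members 2-fold lower (4.67% of all genes), 2 members stood 1.5-fold higher (13.1% of all genes), and 8 stood 1.5-fold lower (11.8% of all genes), Ostc, Pdia3, Sec11c and Ssr2 joining the 4 above. Without such a correction the interval lay above a ratio of 1 for 13 members (50.8% of all genes) and below 1 for 20 (18.6% of all genes), and held 1 for 5. In 14 settings of filter, scaling and cell subset, 18 of the 38 members kept their direction and 20 did not. The setting relative to the median gene turns any positive ratio below 0.22. The same count over all genes is not given here, so it is no trait of the members.

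**Figure D1:**
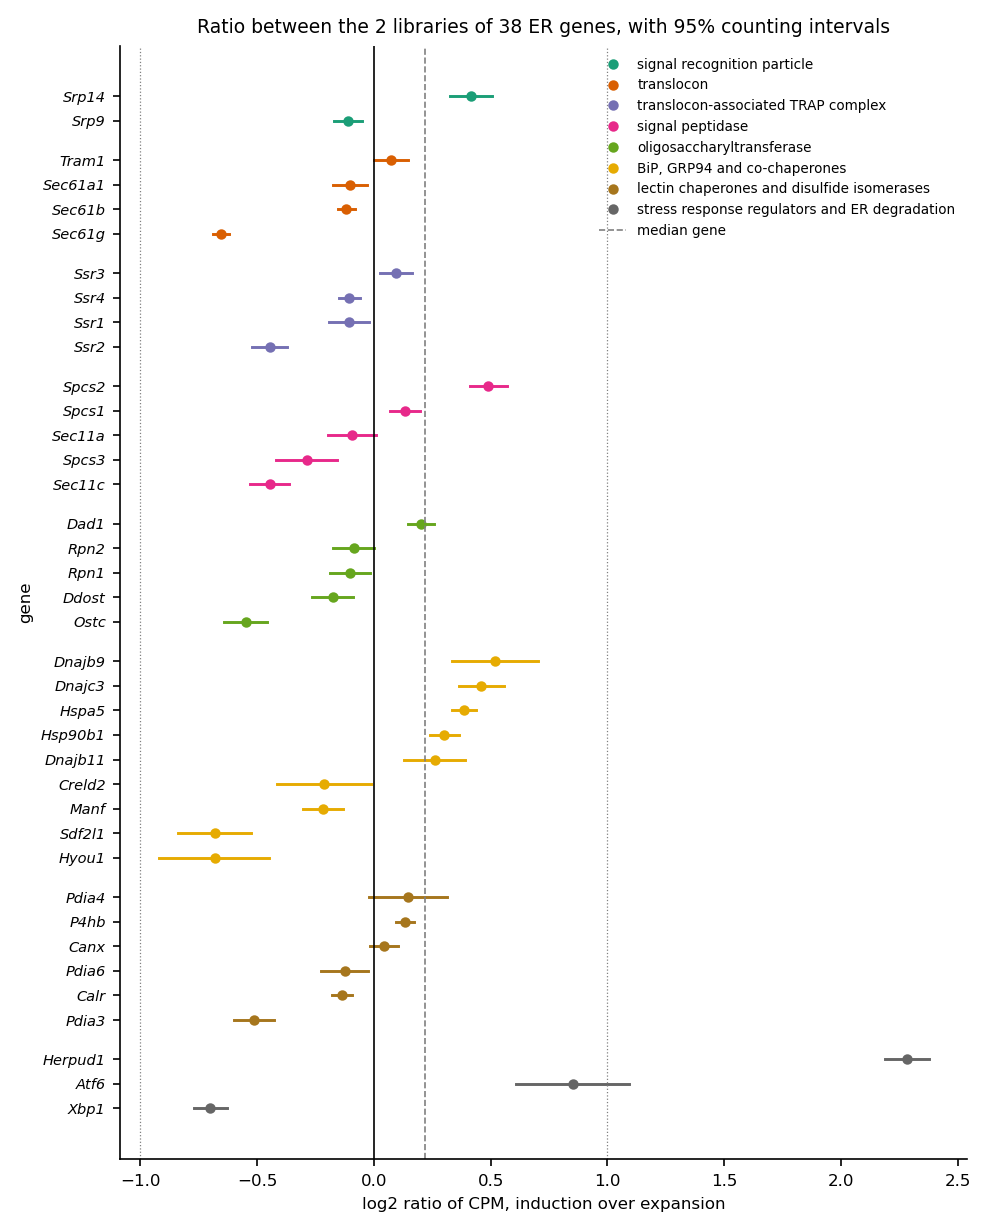
Log2 ratio of CPM (induction over expansion, horizontal axis) for each of the 38 members, grouped by role. Points are ratios and lines 95% counting intervals, with the dashed line at the median gene (0.22) and dotted lines at 2-fold. Herpud1 is the one member beyond a dotted line by its whole interval, and Xbp1, Sdf2l1, Hyou1 and Sec61g lie farthest to the left.

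The members that recognise and thread new chains into the ER mostly stood below their expansion level in induction, with Srp14 as the main exception. Other genes of this role, given below, summed to a higher level in induction. The widest gap was in a small channel subunit. Sec61g, the gamma subunit of the Sec61 channel (chromosome 11, 16500530 to 16508484, minus strand), was at 1397 CPM (1384 to 1411) in expansion and 886 CPM (867 to 906) in induction. Its log2 ratio was -0.66 (interval -0.69 to -0.62), or 1.58-fold lower. The other channel subunits differed much less. Sec61b, the beta subunit, had a ratio of -0.12, and Sec61a1, which forms the pore, was at 230.0 and 214 CPM, a ratio of -0.10. Tram1, a membrane protein beside the channel, was at 211 and 222 CPM with an interval that held 1. Of the signal recognition particle, Srp9 had a ratio of -0.11 and Srp14, its partner in the domain that pauses translation, 0.41 (117 CPM against 156 CPM). The 4 TRAP genes, whose proteins help chains enter the channel, summed to 1227 and 1122 CPM. Among them Ssr2 stood lowest at -0.45 (252 CPM against 185 CPM), and Ssr1 and Ssr4 were each at -0.11. Ssr3 was at 0.09, below the median gene.

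Cleavage and glycosylation genes were nearly level. The 5 signal peptidase genes summed to 808 CPM in expansion and 813 CPM in induction (log2 ratio 0.01, interval -0.03 to 0.05). Within this complex the parts went opposite ways. Spcs2, an accessory subunit, was at 143 and 200.4 CPM (0.49, but -0.01 in cells with G2/M transcripts), and the catalytic subunit Sec11c was at 209.8 and 154 CPM (-0.45). Sec11a, the other catalytic subunit, was at 115 and 108 CPM with an interval that held 1; its exons overlap those of Nmb on the same strand. Spcs3 was at -0.29. Spcs1 was at 0.13 and turned to -0.09 relative to the median gene. The 5 oligosaccharyltransferase genes summed to 1006 and 957 CPM (-0.07). Ostc, the subunit that docks the enzyme to the channel, stood lowest of them at 187 and 128 CPM (-0.55). Dad1 was at 329.7 and 379 CPM, 0.20 as measured and -0.02 relative to the median gene. Rpn1, Rpn2 and Ddost lay between -0.18 and -0.09. Over all 20 members from targeting to glycosylation the sum was 6206 CPM in expansion and 5486 CPM in induction (-0.18, or -0.40 relative to the median gene). Most of this gap was Sec61g, at 1397 and 886 CPM.

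The chaperone group split, with BiP, GRP94 and the J-domain co-chaperones above their expansion level and 4 other stress-responsive genes below. Hspa5, which encodes BiP, was at 368 CPM (361 to 375) in expansion and 481 CPM (467 to 496) in induction, a log2 ratio of 0.39 (interval 0.34 to 0.44). Hsp90b1, which encodes GRP94, was at 252 and 311 CPM (0.30, interval 0.24 to 0.36). The J-domain proteins, which hand substrates to BiP, lay on the same side: Dnajb9 at 0.52, Dnajc3 at 0.46 and Dnajb11 at 0.26. Cells with at least 2 G2/M transcripts did not show this: there Hspa5 was at -0.18 (interval -0.37 to -0.00), Dnajb11 at -0.24, Hsp90b1 at -0.02 and Dnajb9 at 0.00, and of the 5 Dnajc3 alone stood higher, at 0.19 with an interval that held 1. In the other 13 settings all 5 kept their direction, although Hsp90b1 came to 0.00 in cells with a Y-linked UMI. Hyou1, the nucleotide exchange factor of BiP, was at 31.2 CPM (29.2 to 33.3) in expansion and 19.5 CPM (16.7 to 22.5) in induction. Its ratio of -0.68 (interval -0.92 to -0.45) corresponds to 1.6-fold. Sdf2l1, which keeps BiP clients soluble, was at 70.0 CPM (67.0 to 73.1) and 43.7 CPM (39.5 to 48.2), also -0.68. The secreted stress proteins Manf (-0.22) and Creld2 (-0.21) lay nearer to 0. In cells with Xist they were at 0.11 and 0.30, and without 6 induction cells of very high chaperone level, described at the end, at -0.03 and -0.14. The exons of Manf overlap those of Rbm15b on the same strand. The group of 9 summed to 1116 CPM in expansion and 1279.6 CPM in induction, a ratio of 0.20 that turned to -0.02 relative to the median gene.

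Lectin chaperones and disulfide isomerases were level in sum, at 2146 CPM in expansion and 2095 CPM in induction (-0.03). Pdia3, the isomerase that works with the lectin chaperones, stood lowest of the 6 at 214 and 149.9 CPM (-0.51, interval -0.60 to -0.43). Calr, the soluble lectin chaperone calreticulin, was at 705 and 641 CPM (-0.14). Its membrane-bound relative Canx was at 298.5 and 308 CPM with an interval that held 1. P4hb, the most versatile disulfide isomerase, was at 769 and 843 CPM, a ratio of 0.13 that turned to -0.09 relative to the median gene. Pdia4 was at 39.3 and 43.5 CPM with an interval that held 1, and Pdia6 was at -0.13. For 8 members (Sec61a1, Spcs1, Spcs3, Rpn2, Hsp90b1, Manf, Pdia3 and Pdia6) exons of another gene lie on the opposite strand, and whether the counting used strand is not given in the sources used here.

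Herpud1 stood apart from the other members. It encodes an ER membrane protein that assembles the degradation machinery for misfolded proteins (chromosome 8, 94386438 to 94395377, plus strand). Expansion cells held 1490 UMIs of it and induction cells 2268, although the induction library had far fewer UMIs. Its level was 50.7 CPM (48.2 to 53.3) in expansion and 246 CPM (236 to 257) in induction. The log2 ratio was 2.28 (interval 2.19 to 2.38), a 4.86-fold difference. Over 14 settings the ratio ran from 1.36 to 2.41 and stayed past 2-fold in each. The lowest value was that of cells with at least 2 G2/M transcripts, at 55.0 and 141 CPM (1.36, interval 1.03 to 1.69), and the other 13 lay at 2.06 or above. To compare single cells at equal depth, each cell was thinned at random to 2000 UMIs. Of the thinned cells, 9.57% (7.96% to 11.4%) in expansion and 38% (35.3% to 40.8%) in induction held a Herpud1 UMI, and without thinning 64.7% and 71.7% did. No cell type that should lack these genes was present, so no background share from free RNA could be set beside these shares. At least 2 UMIs were found in 0.588% of thinned expansion cells and 12.6% of thinned induction cells. The higher level in induction was thus spread over many cells.

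The transcription factors of the response went opposite ways. Xbp1, the transcript that IRE1 splices (chromosome 11, 5520659 to 5525893, plus strand), was at 340.2 CPM (334 to 347) in expansion and 209 CPM (199.95 to 219) in induction. Its ratio of -0.70 (interval -0.77 to -0.63), 1.63-fold lower, was the lowest of the 38. In thinned cells, 46.6% (43.7% to 49.5%) of expansion and 34.6% (31.9% to 37.3%) of induction cells held an Xbp1 UMI. The counts do not separate spliced from unspliced Xbp1. Atf6, the membrane-bound sensor and transcription factor (chromosome 1, 170704674 to 170867771, minus strand), was at 13.4 CPM (12.1 to 14.8) and 24.1 CPM (21.1 to 27.5). Its ratio of 0.85 (interval 0.61 to 1.09) passed 2-fold only where every cell was given equal weight (1.03), and turned to -0.51 (interval -1.71 to 0.52) in cells with G2/M transcripts, on 9 UMIs in induction.

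**Figure D2:**
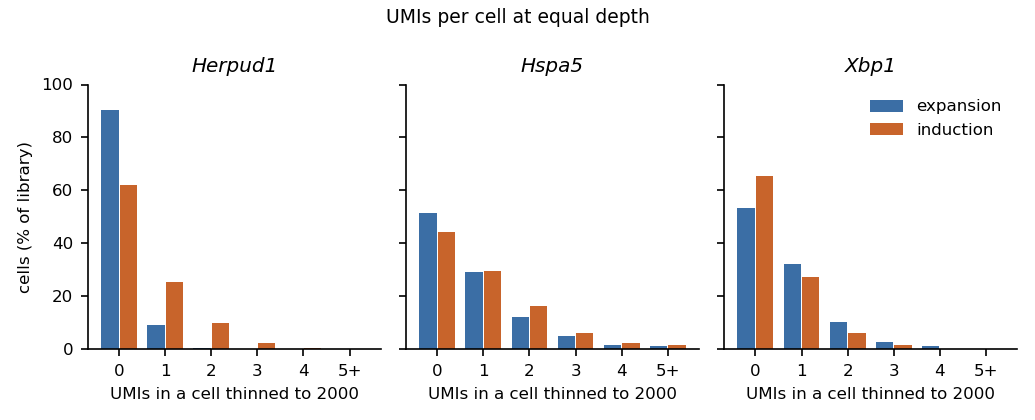
Percent of cells (vertical axis) holding each number of UMIs of Herpud1, Hspa5 and Xbp1 (horizontal axis) after every cell was thinned to 2000 UMIs, in expansion (blue, 1191 cells) and induction (orange, 1231 cells). Cells with 1 or more Herpud1 UMIs made up 9.57% in expansion and 38% in induction, while the Xbp1 bars shift the other way.

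Around the members, 109 further genes of the secretory pathway were sorted into 6 lists, 101 of them at 10 CPM or more. Those of ER-associated degradation, the pathway in which Herpud1 works, leaned towards induction without large single differences. Of its 23 genes measured, 19 had intervals above 1 and 1 below (50.8% and 18.6% of all genes), 7 stood 1.5-fold higher (21.1% of all genes) and 0 stood 2-fold higher. The median was 0.33, or 0.11 relative to the median gene. Derl2, a channel component, was at 51.4 and 84.0 CPM (0.71). Selk was at 0.42, and Vimp was at -0.12. Derl1, Os9 and Sel1l, named like Edem3 after their values were seen, lay between 0.67 and 0.69. The highest of the 23, Edem3, was at 0.79, against 2.28 for Herpud1.

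Among 17 stress sensors and regulators the median was 0.41, with 3 genes 2-fold higher (9.17% of all genes) and 0 lower. Ern1, which encodes the sensor IRE1, was at 10.4 CPM in expansion and 30.2 CPM in induction (1.53, interval 1.29 to 1.77), the opposite side from its target Xbp1. Creb3l3, a liver transcription factor released from the ER membrane in the manner of ATF6, was at 1.46 and 26.5 CPM (4.18, interval 3.71 to 4.68). Trib3, a target of the PERK branch named because only 3 genes passed, was at 3.44 and 10.9 CPM (1.66). Atf4, the effector of that branch, was at 91.6 and 146 CPM (0.68). The 16 genes of a separate list of ATF4 and amino acid stress summed to 525 and 863 CPM (0.72, interval 0.68 to 0.76), and without Atf5 (84.1 and 293 CPM) to 441 and 569.9 CPM (0.37, interval 0.32 to 0.42). Genes of export from the ER had a median of 0.36, and 3 of 19 stood 2-fold higher, Tango2 (1.59), Sec24a (1.44) and Sar1b (1.33, also named for the small count), the last 2 being parts of the COPII coat that buds vesicles from the ER.

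The lists nearest in function to the members had few large ratios, where 9.17% of all genes stood 2-fold higher and 3.17% 2-fold lower. Other translocation and targeting genes had a median of 0.16 over 10 genes, with 0 past 2-fold. Sec63, which helps BiP pull chains through the channel, was at 0.62. Of these 10, 5 had intervals above 1 and 1 below (50.8% and 18.6% of all genes). This list summed to 671 and 813 CPM (0.28, or 0.06 relative to the median gene). Other glycosylation genes had a median of 0.03 over 10 genes, also with 0 past 2-fold, from Tusc3 at -0.48 to Stt3b at 0.32. Other folding enzymes and chaperones had a median of 0.09 over 22 genes. Only Ero1lb, an oxidase that recharges the isomerases, passed 2-fold there (7.83 and 20.2 CPM, 1.37), and Dnajc10 was lowest at -0.62. Cytosolic chaperones, a list outside the ER, summed to 3136 and 2853 CPM (-0.14).

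**Figure D3:**
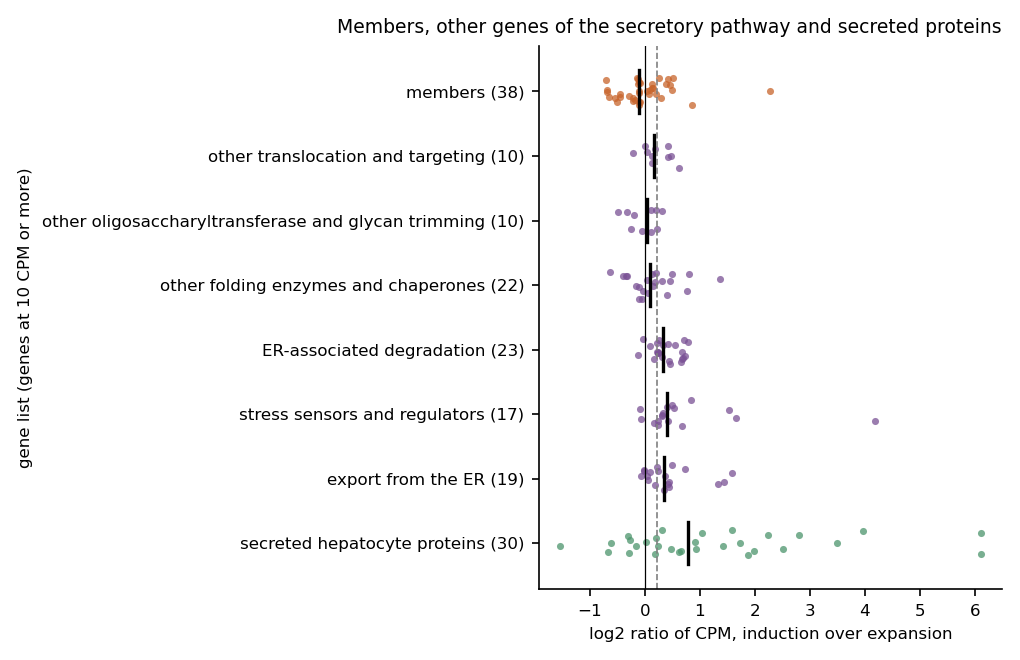
Log2 ratio of CPM (induction over expansion, horizontal axis) of each gene at 10 CPM or more in the members, 6 lists of other pathway genes and the secreted hepatocyte proteins, with the number of genes in brackets. Black bars are medians and the dashed line is the median gene: the members' median of -0.10 lies to its left, and those of degradation (0.33), sensors (0.41), export (0.36) and secreted proteins (0.78) to its right.

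Within each library the members were higher in cells with more secretory cargo. Cells were split into 4 equal groups by the share of their UMIs from the 30 secreted proteins, none of which is a member. In expansion the members summed to 7972 CPM in the lowest group and 10977 CPM in the highest, where median cargo was 4.65% and 15.1%. In induction they summed to 8669.8 CPM and 9727 CPM, where median cargo was 7.06% and 19.4%. Between the lowest and the highest group, Hspa5 was at 269 and 435 CPM in expansion and at 412 and 614 CPM in induction. Herpud1 was at 31.6 and 62.7 CPM, and at 149 and 314 CPM. The lowest induction group thus exceeded the highest expansion group for Herpud1, but not for Hspa5. Xbp1 was at 285 and 370.3 CPM in expansion, and at 206 and 192 CPM in induction, where the order turned once cargo was left out of the total (219 and 241). Since cargo takes up part of the total, the same sums were set against the UMIs of the other genes, where Herpud1 was at 33 and 74.5 in expansion, and at 158 and 393 in induction, on the same scale. Depth moved with some members too: in the shallowest and the deepest of 4 equal groups of cells, Hspa5 was at 464 and 329 CPM in expansion, and at 679 and 409 CPM in induction. The deepest induction group (median 11259 UMIs) thus lay below the shallowest expansion group (median 14517 UMIs) for Hspa5. These groups include the 6 induction cells of very high chaperone level, described at the end, with 16 to 66 Hspa5 UMIs each. All 6 fell in the lowest cargo group of induction, which held 990 Hspa5 UMIs. Most of them fell in the shallowest induction group, which held 812. Their part in the Hspa5 values of these groups was not tested. The part of depth in the differences between the media was not tested. Thinning every cell to equal depth gave Hspa5 a log2 ratio of 0.43. Since thinning keeps the make-up of each cell, this value cannot answer the question.

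Groups of similar cells were found without the members or the pathway lists, and their levels are given as a description. A library's level averages over its clusters, so a wider spread over clusters than between the media is no finding. There were 7 clusters in expansion and 8 in induction, and the members summed to between 5762 and 12152 CPM over the former and between 6759 and 10809.9 CPM over the latter. Lowest in each library was its cluster 7, led by S100a6 and Hmga2 among others, with 33 expansion and 90 induction cells. Highest was expansion cluster 4, led by the acute phase genes Saa2, Orm2, Orm1 and Saa1, and induction cluster 2, led by Slc22a30, Slco1a4, Tat, Cps1 and Rnase4, in which 97.8% of cells had Xist and no Y-linked UMI. Herpud1 ran from 15.3 to 75.1 CPM over expansion clusters. In induction it ran from 44.8 CPM in cluster 7 (32.2 to 60.8) to 385 CPM (348 to 425) in cluster 4, led by Tns1, Lpin1 and Fos, and 375 CPM in cluster 6, led by Thrsp and Sult2a1. The other 7 induction clusters, from 146 CPM upward, lay above all 7 expansion clusters, and cluster 7 lay among them. Xbp1 ran from 58.3 to 495 CPM over expansion clusters and from 101 to 289 CPM over induction clusters, so the media overlapped. No member had all induction clusters above or all below the expansion clusters. The share of all genes for which this holds is not given here, so it is no trait of the members. Cluster sizes are not compared between the media.

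**Figure D4:**
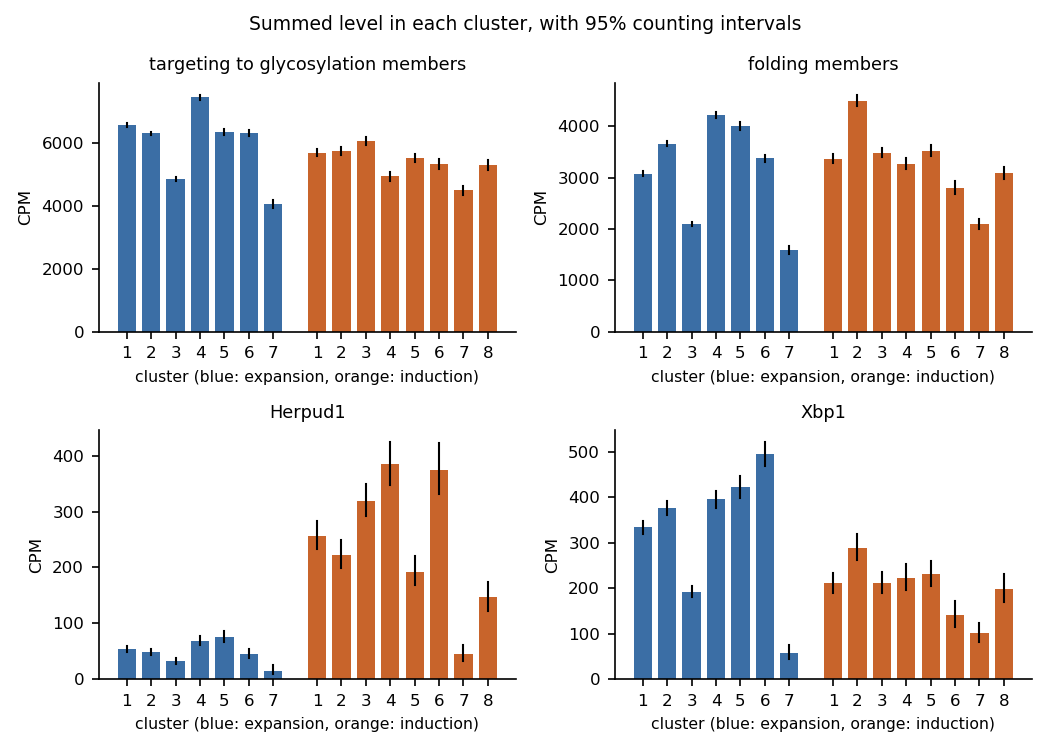
Level in CPM (vertical axis) of the 20 members from targeting to glycosylation, the 15 folding members, Herpud1 and Xbp1 in each cluster of expansion (blue, 7 clusters) and induction (orange, 8 clusters), with 95% counting intervals as black lines. Cluster 7 is the lowest of its library in all 4 plots, and 7 of 8 induction clusters exceed all expansion clusters for Herpud1.

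The kinds of cells told apart by Xist and Y-linked transcripts did not show the same ratios. Sums of all members gave 0.06 (interval 0.04 to 0.08) in cells with Xist and -0.14 (interval -0.15 to -0.12) in cells with a Y-linked UMI. Hsp90b1 was at 239 and 424 CPM in cells with Xist (0.83, interval 0.72 to 0.93), and at 253 CPM in both media in cells with a Y-linked UMI (0.00, interval -0.10 to 0.10). Hspa5 was at 0.74 and 0.25 in these cells, Sdf2l1 at -0.26 and -0.90, and Creld2 at 0.30 and -0.61. All 6 induction cells of very high chaperone level described below were cells with Xist. Without them the ratios in cells with Xist were 0.56 for Hsp90b1 (interval 0.45 to 0.67), 0.55 for Hspa5, -0.32 for Sdf2l1, -0.14 for Creld2 and 0.02 for the sum of all members. Herpud1 was similar in both, at 2.15 (interval 1.97 to 2.34) and 2.3 (interval 2.16 to 2.45). The difference between the kinds of cells was not tested, because each occurs in 1 library per medium. Cells with at least 2 G2/M transcripts after thinning, 144 in expansion and 84 in induction, held the members at 10055 and 8504 CPM (-0.24), and the other cells at 9845 and 9428 CPM. In the former, 2 members stood 2-fold lower, Ostc (-1.11) and Hyou1 (-1.34, on 10 UMIs in induction). The share of all genes 2-fold lower in these cells is not given here.

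Across cells of one library the members varied together only weakly. After thinning to 5000 UMIs, the median correlation over 703 pairs of members was 0.05 in 1191 expansion cells and 0.03 in 952 induction cells. The cells of a library share its chemistry and sequencing, and at these counts a weak correlation is no finding. The pairs with the highest values were folding genes, Calr with P4hb (0.38) and Hspa5 with Calr (0.32) in expansion, and Hspa5 with Calr (0.26) and Calr with P4hb (0.23) in induction. Genes outside the members most like the sum of the 9 BiP, GRP94 and co-chaperone members were mostly secreted proteins. In expansion these were Saa3 (0.46), Lrg1 (0.42), Cp (0.39), Trf (0.39), Fga (0.36), Saa1, Fgg and C3 of 972 genes compared. In induction they were C3 (0.28), Fgb (0.27), C4bp (0.26), the transporter Slc38a3 (0.25), Lrg1, Fgg, Alb and Cfhr2 of 1148 genes. Herpud1 alone was looked at after its ratio was seen. Genes among the highest for it in induction included the metabolic Scd1 (0.33), Khk (0.32) and Slc25a47 (0.30). The secreted Itih4 (0.32), Alb (0.30), Apob (0.30) and Lrg1 (0.26) were also among them. In expansion the highest were mostly secreted, headed by Trf (0.19), Itih4 (0.17) and C3 (0.17). Hspa5 was the highest member, at 0.15 in expansion and 0.14 in induction.

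A few cells carried chaperone levels far outside the rest. A limit of 1% of a cell's UMIs from the 9 BiP, GRP94 and co-chaperone members was chosen with the values in view. Above it were 6 of 1245 induction cells (0.482%, interval 0.177% to 1.05%) and 1 of 1191 expansion cells (0.0840%, interval 0.00213% to 0.467%). The 6 induction cells had 1.53% to 5.91% of their UMIs from these genes, against a median of 0.114% over the library and 0.757% in the next cell. Single cells among them held 16 to 66 Hspa5 UMIs and 18 to 62 Hsp90b1 UMIs at a depth of 2556 to 5504 UMIs. The expansion cell held 60 Hspa5 and 89 Hsp90b1 UMIs of 15502, or 1.24% for the group. None was marked as a doublet. All 6 induction cells had Xist and no Y-linked UMI, and the expansion cell the reverse. Mitochondrial UMIs made up 3.69% to 7.11% of the 6 cells.

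In the 6 induction cells pooled, the difference from the other 1239 cells was not even along the pathway. The comparison of the group's own 9 genes is fixed by the limit and is given as a description. Creld2 was 67.2-fold, Hsp90b1 38.2-fold, Hspa5 23.8-fold and Manf 20.7-fold the level of the other cells. Single cells among the 6 held 1 to 11 Creld2 UMIs and 2 to 33 Manf UMIs, so 1 cell can weigh heavily in a pooled fold. Of members that did not set the limit, Pdia4 was 23.5-fold (interval 14.2 to 36.8), Calr 6.07-fold (4.80 to 7.58), Herpud1 3.57-fold (2.12 to 5.66) and P4hb 2.96-fold (2.20 to 3.89). The 20 members from targeting to glycosylation were 1.86-fold (1.61 to 2.13), and Xbp1, on 8 UMIs, 1.87-fold (0.804 to 3.68). Outside the members, among genes named after their values were seen, Derl3, a degradation gene that is also on the plasma cell list and of which the other 1239 cells together held 3 UMIs, had 13 UMIs in these 6 cells. Selk was 6.36-fold and Ddit3, the transcription factor CHOP, 17.9-fold on 7 UMIs. The secreted hepatocyte proteins were lower, at 0.834% to 4.09% of UMIs in each of the 6, with Alb at 7448 CPM against 19477 CPM and Hp at 584 CPM against 15464 CPM, whereas Rbp4 was higher at 9492 CPM against 1872 CPM. Of the plasma cell list, Mzb1, Ighm and Igkc were at 0 UMIs in the 6 cells, which allows up to 146 CPM each. The whole induction library held 1, 0 and 0 UMIs of them, so these zeros do not set the 6 cells apart. The values of Sdc1, Jchain and Iglc2 of the same list in the 6 cells are not given here.

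The genes outside the members that led these cells are given as a description, among those with at least 20 UMIs in the cells themselves. Ordered by the lower bound of the fold over the other cells of the library, those in induction were headed by Bnip3, a mitophagy receptor (37.6-fold, interval 26.0 to 52.9, in 6 of 6 cells), Sgk1, a kinase gene that responds to glucocorticoids (12.7-fold, in 5 of 6 cells), and the metallothionein Mt1 (5.63-fold). In the 1 expansion cell they were headed by Higd1a, a mitochondrial membrane protein (11.5-fold), Mt2 and Mt1. This rule was chosen after the cells had been seen. Leaving out all cells above the limit moved the log2 ratio of Hsp90b1 between the media from 0.30 to 0.20 and that of Hspa5 from 0.39 to 0.32.

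**Figure D5:**
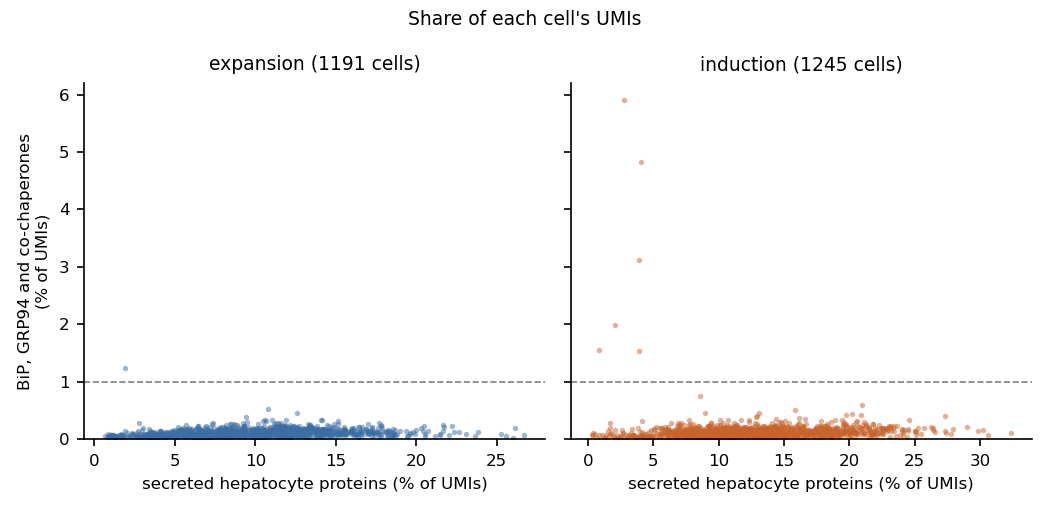
Percent of a cell's UMIs from the 9 BiP, GRP94 and co-chaperone members (vertical axis) against the percent from 30 secreted hepatocyte proteins (horizontal axis), 1 point per cell, in expansion (1191 cells) and induction (1245 cells). The dashed line marks 1%: 1 expansion and 6 induction cells lie above it, the 6 at 0.834% to 4.09% of secreted protein UMIs and the expansion cell at 1.92%.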

How the data were processed

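Single-cell libraries were made with a 10x Genomics Chromium protocol, per the labels' protocols. The authors deposited UMI counts per gene and barcode, unnormalized, per the submitters' processing notes with Cell Ranger 2.1.1 and build mm10. Which annotation release was used, how cells were called and whether strand was used: not given in the sources used here. Barcodes with under 500 genes or over 25% mitochondrial UMIs were left out (17 and 30), leaving 29390000 and 9201887 UMIs. Doublets were marked by Scrublet and kept. Counts were summed per library and divided by its total. A count of 0 allows up to 3 UMIs, or 0.102 CPM in expansion and 0.326 CPM in induction. No test was made and no p-value computed, since each medium had 1 library. The members and lists were chosen with earlier results of these data known. All members could be named; of other lists, the gene with most UMIs and the 2 largest ratios in each direction at 20 CPM or more; of the genes most like a sum, 8 of at least 100 CPM; of a cluster, its 5 leading genes. A few genes these rules select are not reported here. Clusters were made with scanpy 1.11.5 (Leiden, resolution 0.6, 20 components of 2000 variable genes, 15 neighbours). Coordinates are from GENCODE M21 (GRCm38, the assembly mm10 denotes) by gene ID, for 38 of 38 members. The ratio code was tested on simulated data. Alternatives were other cell filters, denominators, weights, folds, thinning and cell subsets. Scripts ran on Python 3.11.15 (pandas 2.3.3, scipy 1.17.1, numpy 2.4.6).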

Additional observations from a re-analysis of the deposited data

Results flagged for a closer look

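Of the 38 members, 3 had log2 ratios (induction over expansion) whose intervals lay on opposite sides of 0 between Xist cells and those with a Y-linked UMI. Calr, the lectin chaperone calreticulin, was at 0.28 (interval 0.21 to 0.35) in cells with Xist and -0.30 (interval -0.37 to -0.24) in cells with a Y-linked UMI. Rpn1, an oligosaccharyltransferase subunit, was at 0.27 (interval 0.12 to 0.42) and -0.21 (interval -0.35 to -0.08). Sec61a1, the pore of the Sec61 channel, was at 0.19 (interval 0.07 to 0.31) and -0.21 (interval -0.32 to -0.10). Without the 6 induction cells of very high chaperone level, all with Xist, the values in cells with Xist were 0.24, 0.27 and 0.18. The difference was not tested in any of the 3, since each kind of cell came from 1 library per medium. The share of all genes with such opposite intervals is not given here, so the count of 3 cannot be set beside it.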

How the results depend on the processing

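No paired analysis was possible because each medium had 1 library. Herpud1 was the single member 2-fold higher in each setting but 2: equal weight for every cell and a fold of 1.5 both gave 2, with Atf6. The count 2-fold lower was 0 except with a fold of 1.5, which gave 4, and in cells with G2/M transcripts, which gave 2. Shares of all genes in the cell subsets are not given here. The median of the members (-0.10) was -0.31 without mitochondrial and ribosomal protein genes, -0.32 relative to the median gene, and reversed to 0.17 in cells with Xist. The summed log2 ratio (-0.080) was -0.28 without mitochondrial and ribosomal protein genes, -0.30 relative to the median gene, -0.053 with equal weight for every cell, -0.051 with thinned cells, -0.14 in cells with a Y-linked UMI and -0.063 without cells holding G2/M transcripts, and it reversed to 0.062 in cells with Xist. Of 4 alternatives added after seeing the data, leaving the secreted protein genes out of the total gave -0.035 and leaving out the cells above 1% of chaperone UMIs gave -0.092 for the sum. Within cells with Xist, leaving out the same cells gave a sum of 0.023 and a median of 0.10, and cells with G2/M transcripts alone gave a sum of -0.24. The cause was not tested. Depth limits Hyou1, Atf6 and Creld2 most, with 179, 222 and 260 UMIs in induction.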
